A study of Homo sapiens with 3 samples.

Results

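The tumour necrosis factor (TNF) superfamily was examined on 3 expression arrays of the human melanoma line 1205Lu. Members were taken by the gene name printed in the scanner files, that is every non-control probe whose name begins TNFRSF (the receptors) or TNFSF (the ligands), or is TNF, LTA, LTB, FAS, FASLG or CD40. The rule gave 42 gene names of 30982 on the array, measured by 53 probes of 41000. Of these names, 4 have another symbol today: TNFRSF7 is CD27, TNFRSF19L is RELT, TNFSF7 is CD70, and TNFSF5IP1 is PSMG2, a proteasome assembly chaperone that is no member of the family and was kept only because the rule takes its name. The other 41 genes were 25 receptors and 16 ligands.

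The line is established and was derived from a lung metastasis that WM793 cells formed as a xenograft in a mouse. Cells of the original monolayer (OM) had 14 days in RPMI-1640 medium with fetal calf serum (the standard medium). The melanoma bodies (MB), which are attached 3D spheroids, had 14 days in human embryonic stem cell (hESC) medium, made of DMEM/F-12 and a serum replacement. The new monolayer (NM) came from such bodies, kept 14 days in hESC medium before 10 further days in the standard medium, and any remaining 3D bodies were taken away before its RNA was prepared. Medium, serum and growth form therefore changed together between OM and MB, and again between MB and NM, and cannot be told apart. NM differed from OM in its earlier time as bodies in hESC medium and in its days in the standard medium (10 against 14). These cannot be told apart either. Each population was measured on 1 array, all 3 on the same slide, so there are no replicate cultures, no test across samples was made and no p-value is given.

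Ligands of the TNF superfamily are mostly membrane-anchored trimers that can also be shed from the cell, and each binds one or a few receptors with cysteine-rich extracellular repeats. Receptors with a cytoplasmic death domain can recruit FADD and caspase-8 and start apoptosis, receptors that bind TRAF adaptors mainly switch on NF-kB and MAP kinases, and decoy or soluble receptors bind a ligand without passing on a signal. In tumours the family is best known for the exchange between cancer cells and lymphocytes, which carry many of the ligands and costimulatory receptors.

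Signals are background-corrected spot intensities in arbitrary units (a.u.), scaled so that the average of the housekeeping genes GAPDH, ACTB and HSP90AA1 is the same on each array as in OM. A probe was counted as measured where the scanner software marked it well above background. Where this mark was missing on the dimmer array, the ratio is only a bound, written "at least". For such a bound the dim signal was raised, if lower, to that array's smallest signal carrying the mark, which was 20.9 a.u. for OM, 19.8 for MB and 33.2 for NM. Every gene is represented by its brightest probe, and signals of different genes are not compared because probes differ in response. The 3 ratios of a gene share arrays (the ratios of MB to OM and of NM to MB both use MB), so they are given side by side and are not separate evidence.

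The members with the largest ratios were TNFRSF9 and TNFRSF21, and the sequences behind them are shown so that the measured transcripts can be identified. The first 30 bases of the 60-base probes are given in transcript sense, with positions in the hg17 build. The TNFRSF9 probe lies at chr1:7914989-7915048 on the minus strand. Both TNFRSF21 probes lie on the minus strand, the brighter at chr6:47307442-47307501 and the dimmer at chr6:47308509-47308568. Both TNFRSF19 probes lie on the plus strand, at chr13:23147642-23147701 (brighter) and chr13:23141117-23141176, and the FAS probe lies at chr10:90764525-90764584, also on the plus strand. The TNFRSF6B probe spans 817 bases of the plus strand, chr20:61799318-61800134, so its letters are spread over more than 1 stretch of the genome. Exon and UTR annotation of that build was not used here.
TNFRSF9 probe: ttcccccaacacacgttcttttctaaatgc
TNFRSF21 brighter probe: gtccaatctgctctcaaggccttggtcctg
TNFRSF21 dimmer probe: ggctgaggacaaactagaccggctattcga
TNFRSF19 brighter probe: tgctactgaatttggtaaatcctgggtaac
TNFRSF19 dimmer probe: tctagatataacaacacactggtagaatca
TNFRSF6B probe: aggagctgaggagtgtgagcgtgccgtcat
FAS probe: atgtctatccacaggctaaccccactctat

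The 250 bases upstream of the same leading genes, from RefSeq on GRCh38.p14, are shown with the matches to a loose string of letters in capitals. They are chr1:7940840-7941089 (minus strand) for TNFRSF9 and chr6:47309906-47310155 (minus strand) for TNFRSF21, each printed 5' to 3' in the direction of the gene.
TNFRSF9 upstream: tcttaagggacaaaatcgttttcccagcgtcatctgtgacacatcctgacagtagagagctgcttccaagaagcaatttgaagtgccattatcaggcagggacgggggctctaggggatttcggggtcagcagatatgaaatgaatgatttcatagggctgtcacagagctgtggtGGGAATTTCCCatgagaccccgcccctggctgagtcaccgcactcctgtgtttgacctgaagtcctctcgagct
TNFRSF21 upstream: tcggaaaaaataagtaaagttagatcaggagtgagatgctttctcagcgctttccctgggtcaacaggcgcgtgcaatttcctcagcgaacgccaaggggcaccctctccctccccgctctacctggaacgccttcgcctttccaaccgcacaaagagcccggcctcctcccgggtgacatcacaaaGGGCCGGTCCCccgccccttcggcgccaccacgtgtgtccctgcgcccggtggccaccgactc

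The letters searched, on both strands, were GGG, any 5 bases and CC. They are the outer letters of the NF-kB site and do not by themselves mark one. The tighter form given below was not found in the TNFRSF21 window. The capitals hold 2 overlapping matches, which begin 74 and 73 bases before the start of TNFRSF9 and 63 and 62 bases before that of TNFRSF21. Because the search was chosen with the values of TNFRSF9 known, its result is a description. Promoter windows were found for 29 members (PSMG2 among them), 40 windows in all since some genes have several. Some of these overlap, as for LTB and TNFSF14, and each was counted. These letters were in 72.5% of these windows and in 54.4% of the 35116 RefSeq promoter windows, and is thus common everywhere. The tighter form with any 2 bases between GGG and TTTCC was in 3 of the 40 member windows (7.5%), namely the one of TNFRSF9 and 2 overlapping ones of LTB, against 1.73% of all windows. TGANTCA, the AP-1 letters, was in 15% of member windows and 6.57% of all, and TATAAA in 15% and 10.7%. A match is a string of letters and no evidence of binding.

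Of the 42 genes, 27 were well above background on all 3 arrays, 5 on 1 or 2 arrays and 10 on none. The 10 at background throughout were the ligands FASLG, TNFSF8, TNFSF11 (RANKL), TNFSF14, TNFSF15 and TNFSF18, the B-cell receptors TNFRSF13B and TNFRSF17, TNFRSF18 (GITR), and the decoy receptor TNFRSF10D. All 6 death receptors were measured on every array, against 9 of 15 TRAF-binding receptors, 3 of 4 decoy or soluble receptors and 8 of 16 ligands. By array, 30, 30 and 28 of the 42 genes were well above background on OM, MB and NM. Over all probes of the array, not reduced to 1 per gene, the shares were 70.1%, 71.0% and 64.7%. No member probe was saturated.

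**Figure D1:**
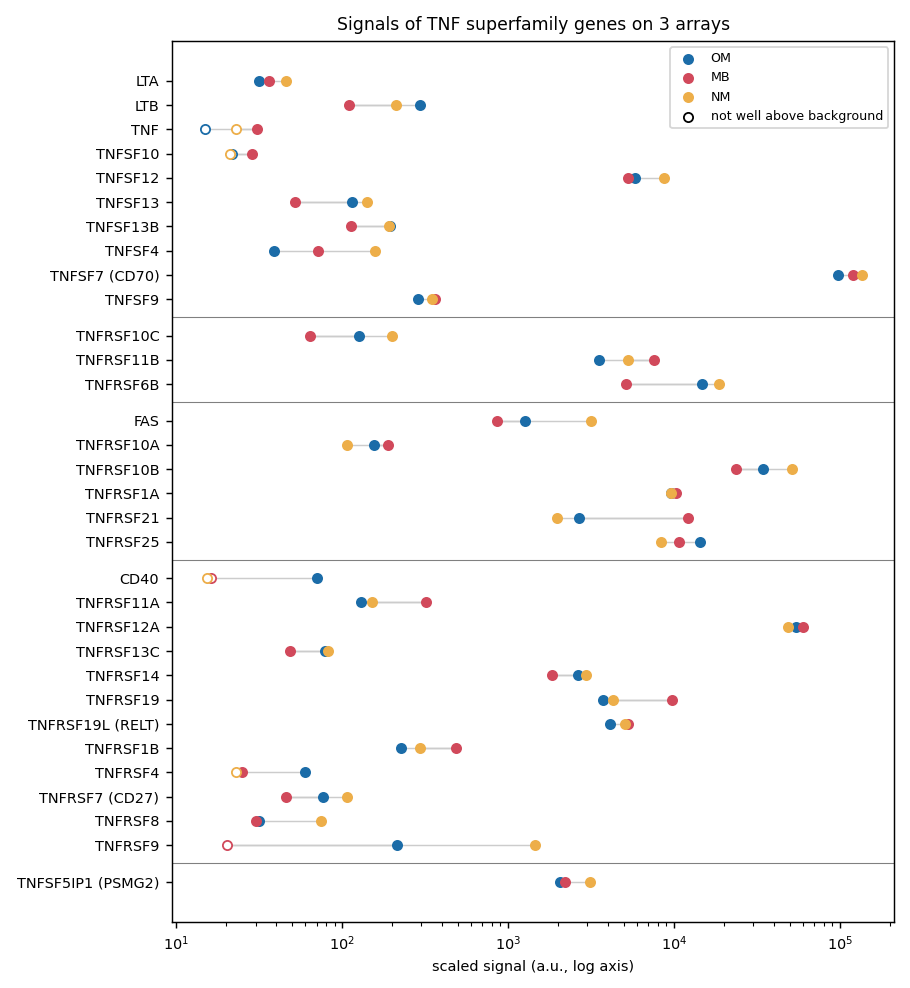
Scaled signal in a.u. (x axis, log scale) of the 32 member genes well above background on at least 1 array, 1 point per array (OM, MB, NM), open where not well above background. From top to bottom the blocks are ligands, decoy or soluble receptors, death receptors, TRAF-binding receptors and the non-member PSMG2. The widest gap is that of TNFRSF9, from 20.2 a.u. on MB to 1457 in NM, while TNFRSF1A stays between 9652 and 10337.

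In MB against OM, 5 members were higher and 6 lower by 2-fold or more, of 32 well above background on either array (15.6% and 18.8%). Over all 22219 genes so measured, 6.66% were higher and 4.65% lower. The higher members were all receptors (TNFRSF21, TNFRSF19, TNFRSF11A, TNFRSF1B and TNFRSF11B), and the lower ones were the receptors TNFRSF9, CD40, TNFRSF4 and TNFRSF6B with the ligands LTB and TNFSF13. The members split evenly, with a median log2 ratio of 0.02 over the 28 measured on both arrays beside 0.08 over all genes. That small median has no stable sign, since it was -0.17 with scaling to the 75th percentile and -0.29 with spike-in scaling, which also moved the median of all genes to -0.11 and -0.23. In bulk RNA, fewer cells with a transcript and less of it per cell cannot be told apart.

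In NM against MB, 9 members were higher and 3 lower by 2-fold or more, of 31 (29.0% and 9.68%), beside 9.86% and 12.4% of 21931 genes. The median log2 ratio was 0.50 over 27 measured members and 0.00 over all genes. That middle value is the one of PSMG2, which is no family member. By part, the median was -0.08 over 18 receptors and 0.74 over 8 ligands, so it was no shift of the whole family. The 9 were TNFRSF9, FAS, TNFRSF6B, TNFRSF10C, TNFSF13, TNFRSF8, CD27, TNFRSF10B and TNFSF4, and the 3 were TNFRSF21, TNFRSF19 and TNFRSF11A. In NM against OM, 4 of 30 were higher (13.3%, with 4.58% of 21600 genes) and 1 was lower (3.33%, with 5.9% of genes). These were TNFRSF9, TNFSF4, FAS and TNFRSF8 on the higher side and CD40 on the lower. The median log2 ratio of NM to OM was 0.33 over 28 members and 0.09 over all genes. For MB against OM, replicate spots gave a log2 ratio of single spots an SD of 0.07. That SD comes from probes above 100 a.u. on both arrays, so it may not hold for dimmer members. It is technical error only and says nothing of the spread between cultures.

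**Figure D2:**
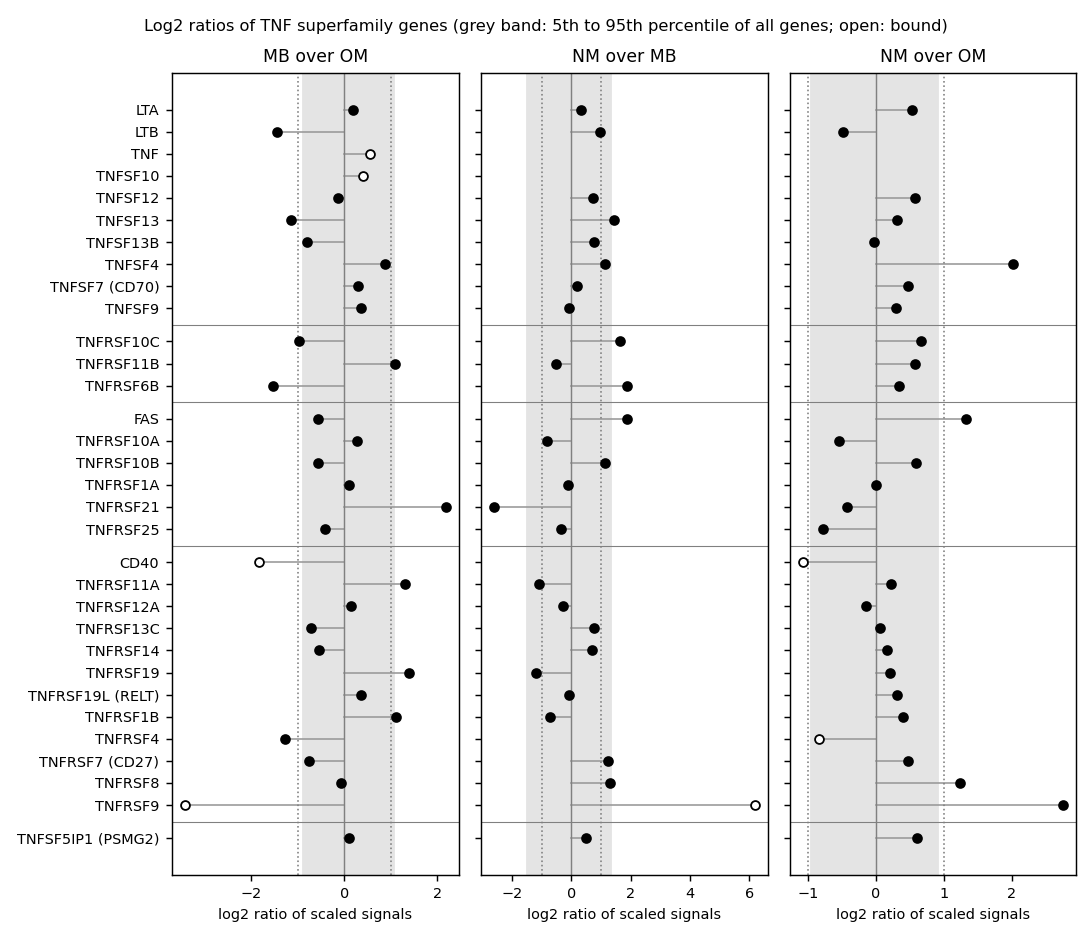
Log2 ratio of scaled signals (x axis) of the same genes in the 3 comparisons, with the scale differing between panels, points filled where both arrays were well above background and open where the ratio is a bound. The grey band is the 5th to 95th percentile of all measured genes and the dotted lines mark 2-fold. TNFRSF9 lies outside the band in every panel and TNFRSF21 in the panels with MB, at 2.18 and -2.61.

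TNFRSF9 (4-1BB), a costimulatory receptor best known on activated T cells, gave 215 a.u. in OM, 20.2 on MB (not well above background) and 1457 in NM. It was the only member past 5-fold in all 3 comparisons: at least 10.7-fold lower in MB than in OM, at least 72.2-fold higher in NM than in MB, and 6.77-fold higher in NM than in OM. At 5-fold or more with the brighter array above 100 a.u., the study's own criterion, 0.554%, 1.35% and 0.62% of genes passed in the same directions. TNFRSF9 is in the list of lowered genes that the study drew from these arrays, so its pattern here is no independent evidence. The sizes depend on the background: with the normexp correction the differences were 3.31-fold, 18.3-fold and 5.52-fold. It has 1 probe of 1 spot, so no second measurement on the array bears on it. Its ligand TNFSF9 (4-1BBL) was 285, 365 and 349 a.u. in OM, MB and NM, and both of its probes, whose positions overlap, were within 2-fold in all comparisons.

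TNFRSF21 (DR6), a death receptor studied mostly in neurons and lymphocytes, had the reverse order of arrays. Its signal was 2672 a.u. in OM, 12098 in MB and 1976 in NM, that is 4.53-fold higher in MB than in OM and 6.12-fold lower in NM than in MB. NM was then 1.35-fold below OM. The dimmer probe gave 294, 1600 and 206 a.u., and its log2 ratios of 2.44, -2.96 and -0.52 lay beside 2.18, -2.61 and -0.43 for the brighter one. Of all genes, 1.83% were lower by the 5-fold criterion in NM against MB, and TNFRSF21 was the 1 member among them.

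Of the other death receptors, FAS, the receptor of FASLG, is measured with 10 spots. It read 1269 ± 78.0 a.u. in OM, 857 ± 35.7 in MB and 3163 ± 88.7 in NM (SD over 10 spots). The spots of the 3 arrays did not overlap, with 1072 to 1366 on OM, 781 to 908 in MB and 3022 to 3289 in NM. FAS was 1.48-fold lower in MB than in OM, 3.69-fold higher in NM than in MB and 2.49-fold higher in NM than in OM. Its ligand FASLG was at background on all arrays by both probes, its 10-spot probe averaging 5.45, 4.98 and 8.26 a.u.

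The TRAIL receptors differed in their order of arrays. TNFRSF10B (DR5) gave 34571 a.u. in OM, 23576 in MB and 51735 in NM, 2.19-fold higher in NM than in MB, but its other probe gave a log2 ratio of 0.51 there, under 2-fold. TNFRSF10A (DR4), which binds the same ligand, read 155, 189 and 106 a.u. and stayed within 2-fold. The ligand itself, TNFSF10 (TRAIL), was near background, with 6 of 10 spots well above it on MB, 2 of 9 on OM and 0 of 9 in NM. TNFRSF1A, the main TNF receptor of most cells, was level, at 9652, 10337 and 9665 a.u. by its brightest probe and at 3311 ± 126, 3670 ± 123 and 3553 ± 84.1 by the probe with 10 spots. TNFRSF25 (DR3) was 14376, 10737 and 8377 a.u., lowest in NM and within 2-fold.

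**Figure D3:**
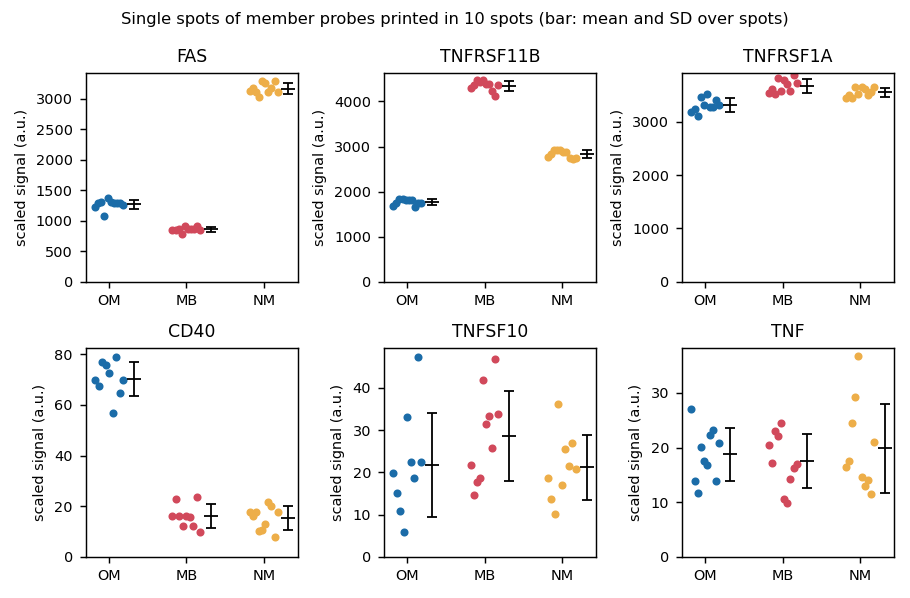
Scaled signals in a.u. (y axis, from 0) of the single spots of 6 member probes printed in 10 spots on OM, MB and NM, with the mean and SD over spots as a bar. Spots of FAS and TNFRSF11B do not overlap between arrays and those of CD40 on OM lie above all of MB and NM, whereas TNFSF10 and TNF overlap throughout; for TNFRSF11B and TNFRSF1A this is the dimmer of 2 probes and for TNF the one with the lower mean.

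Decoy and soluble receptors split between the arrays. TNFRSF6B (DcR3), a secreted decoy for FASLG, TNFSF14 and TNFSF15, gave 14849.5 a.u. in OM, 5130 in MB and 18813 in NM. It was 2.89-fold lower in MB than in OM, 3.67-fold higher in NM than in MB, and 1.27-fold higher in NM than in OM. The gene overlaps a readthrough transcript with RTEL1, and which of the transcripts the probe detects was not tested. TNFRSF10C (DcR1), a membrane decoy for TRAIL, was 126, 63.7 and 199 a.u., a ratio just under 2-fold lower in MB (1.97-fold) and 3.12-fold higher in NM than in MB. TNFRSF11B (osteoprotegerin), which traps RANKL and TRAIL, ran the other way, with 1768 ± 61.4 a.u. in OM, 4352 ± 113 in MB and 2836 ± 83.2 in NM by the probe with 10 spots. Its log2 ratio of MB to OM was 1.30 by that probe and 1.09 by the brighter one, and the brighter one fell under 2-fold with 3 of the 5 other scalings (1.73-fold with spike-in scaling). Cross-hybridisation among the closely related TNFRSF10 genes was not tested.

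Of 12 TRAF-binding receptors measured in OM or MB, 3 were higher and 3 lower in MB by 2-fold or more, beside 6.66% and 4.65% of all genes. TNFRSF19 (TROY), expressed in neural and skin progenitors, gave 3714 a.u. in OM, 9754 in MB and 4276 in NM, 2.63-fold higher in MB than in OM and 2.28-fold lower in NM than in MB. The other TNFRSF19 probe gave 136, 484 and 143 a.u., with log2 ratios of 1.83 and -1.76. TNFRSF11A (RANK) was 129, 321 and 151 a.u., 2.48-fold higher in MB than in OM and 2.12-fold lower in NM than in MB. The first of these was under 2-fold in 1 of 10 other settings (1.96-fold) and the second in 6 (down to 1.64-fold). Its ligand TNFSF11 was at background. TNFRSF1B, the inducible TNF receptor, was 225, 483 and 296 a.u., 2.15-fold higher in MB than in OM but under 2-fold with 5 of the 10 other settings (1.74-fold with spike-in scaling).

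CD40, best known for B-cell and dendritic-cell activation, was detected on OM alone, with 70.3 ± 6.79 a.u. over 9 spots, all well above background. On MB it was 16.1 ± 4.70 with 1 of 9 spots well above background, and in NM 15.3 ± 4.63 with 0 of 10. Against OM it was lower by at least 3.55-fold in MB and at least 2.12-fold in NM, the latter bound being smaller because dim signals in NM have a higher floor. TNFRSF4 (OX40) was likewise highest on OM, with 59.7 a.u. in OM, 24.9 in MB and 23.0 in NM (not well above background). It was 2.40-fold lower in MB and at least 1.80-fold lower in NM. Both are dim, and with the normexp correction MB was lower than OM by at least 1.58-fold for CD40 and by 1.46-fold for TNFRSF4.

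CD27 and TNFRSF8 (CD30), lymphocyte costimulatory receptors, were highest in NM. CD27 gave 76.4, 45.6 and 106 a.u. in OM, MB and NM, 2.33-fold higher in NM than in MB. TNFRSF8 gave 31.6, 30.3 and 74.8 a.u., 2.47-fold above MB and 2.37-fold above OM. These signals are also dim, and the folds against MB were 1.66-fold and 1.56-fold with the normexp correction. The remaining measured TRAF-binding receptors stayed within 2-fold in all comparisons: TNFRSF12A (the TWEAK receptor Fn14) at 54181, 60162 and 49069 a.u., RELT at 4119, 5305 and 5078, TNFRSF14 (HVEM) at 2654, 1831 and 2961, and TNFRSF13C (the BAFF receptor) at 79.0, 48.2 and 82.4.

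Of the ligands, TNFSF4 (OX40L) was lowest in OM and highest in NM, with 38.9 a.u. in OM, 71.7 in MB and 157 in NM. It was 4.04-fold higher in NM than in OM (2.10-fold with the normexp correction) and 2.19-fold higher in NM than in MB, whereas its receptor TNFRSF4 was highest on OM. LTB, which forms heterotrimers with LTA, gave 296 a.u. in OM, 110 in MB and 212 in NM, 2.70-fold lower in MB. TNFSF13 (APRIL) gave 114, 52.2 and 142 a.u., 2.19-fold lower in MB than in OM and 2.71-fold higher in NM than in MB. Without background subtraction the first of these TNFSF13 ratios became 1.61-fold lower. TNFSF13 shares a readthrough transcript with its neighbour TNFSF12, and which of them the probe detects was not tested.

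CD70, the ligand of CD27, gave 97639 a.u. in OM, 119612 in MB and 135453 in NM, within 1.39-fold. TNFSF12 (TWEAK) was 5846, 5298 and 8742 a.u., TNFSF13B (BAFF) 195, 113 and 191, and LTA 31.6, 36.1 and 45.6, none past 2-fold. TNF was at the edge of detection: the probe with 10 spots averaged 18.8 ± 4.85, 17.5 ± 5.02 and 19.9 ± 8.14 a.u., below the mark on every array, and a probe of 1 spot was well above background on MB alone, at 30.6 a.u. (at least 1.47-fold above OM). PSMG2, taken by its old name, was 2062, 2216 and 3135 a.u.

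Several receptors with a known ligand in the family were measured while that ligand was at background in all 3 populations. Examples were FAS (ligand FASLG), TNFRSF11A (TNFSF11), TNFRSF8 (TNFSF8) and TNFRSF25 (TNFSF15). The same held for the decoy TNFRSF6B and the ligands named for it above. This concerns RNA in these cultures and not ligand that other cells could bring.

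Several members lie on the same chromosome, some close together and others megabases apart, and they differed in their order of arrays. On chromosome 1 of hg17 the probes of TNFRSF18, TNFRSF4, TNFRSF14, TNFRSF25, TNFRSF9, TNFRSF8 and TNFRSF1B follow from position 1179742 to 12202600. Of these, TNFRSF1B was highest on MB, TNFRSF9, TNFRSF8 and TNFRSF14 in NM, and TNFRSF4 and TNFRSF25 on OM. TNFRSF14 and TNFRSF25 stayed within 2-fold, and TNFRSF18 was at background. FASLG, TNFSF18 and TNFSF4 lie together within chr1:169366721-169884895, and TNFSF4 alone was above background. LTA, TNF and LTB lie within chr6:31649133-31656507, and LTB alone was past 2-fold.

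Family genes that the rule does not take by name were looked up in the same way. Of the 6 on the array, NGFR (p75), a neurotrophin receptor and neural crest marker, gave 123 a.u. in OM, 354 in MB and 598 in NM, with log2 ratios of 1.52 (MB to OM), 0.76 (NM to MB) and 2.28 (NM to OM). LTBR, the receptor of LTA and LTB heterotrimers, was 10310, 12727 and 10030 a.u., and the ectodysplasin ligand EDA 362, 435 and 468. EDAR and EDA2R were at or near background, and CD40LG, the ligand of CD40, was at background on all 3 arrays.

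Intracellular partners were read from fixed lists of 41 adaptors, caspases, kinases and sheddases, of which 40 (all but CASP10) were well above background on each array. In MB against OM 2 were higher and 1 lower by 2-fold (6.66% and 4.65% over all genes), in NM against MB 4 were higher and 3 lower (9.86% and 12.4%), and in NM against OM 3 were higher and 1 lower (4.58% and 5.9%). BIRC3 (cIAP2), a ubiquitin ligase of TNF receptor complexes, gave 9601 a.u. in OM, 3076 in MB and 20890 in NM, with log2 ratios of -1.64, 2.76 and 1.12. TRAF1, an adaptor of TNFRSF9 among others, gave 11092, 28962 and 6433 a.u., with log2 ratios of 1.38, -2.17 and -0.79. BIRC3 thus had its lowest signal and TRAF1 its highest on MB, where TNFRSF9 was not well above background.

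RIPK1, the kinase recruited to TNFRSF1A, had log2 ratios of 1.01 in MB against OM and -1.23 in NM against MB, and TRAF4 had 0.82 and -1.12. In NM against MB, log2 ratios were 1.56 for CASP8, the initiator caspase of death receptors, 1.32 for its substrate BID and 1.20 for its inhibitor CFLAR. Against OM they were 1.27 for CASP8, 1.13 for BID and 0.80 for CFLAR. FAS, its initiator caspase and the inhibitor of that caspase were thus all highest in NM, although FADD, the adaptor between them, was level at 21112, 27104 and 21267 a.u. TIMP3, an inhibitor of the sheddase ADAM17, had a log2 ratio of -1.02 in NM against OM, and ADAM10, ADAM17 and the 10 genes of the kinase list (TAK1, IKK and related kinases with their partners, without RIPK1) stayed within 2-fold. Ratios and counts of the intracellular partners were not checked under other processing settings. Those of RIPK1 in MB against OM and of TIMP3 in NM against OM lay just past 2-fold.

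Markers of other cells were checked because lymphocytes, endothelium and epithelium express many of these genes. The leukocyte markers PTPRC, CD3D and NKG7 were at background on all arrays, and the 4 others of the list (CD14, CD3E, ITGAM and MS4A1) reached 346 a.u. at most. The summed signal of the 7 was 365 a.u. in OM, 381 in MB and 549 in NM, and ITGAM alone was 135, 199 and 346. The sum, which adds unlike probes and signals at background, was highest in NM, as were ITGAM, TNFRSF9, CD27 and TNFRSF8. CD14 (70.3, 61.6 and 67.0 a.u.), CD3E (110, 86.8 and 99.6) and MS4A1 (well above background on OM alone) were instead highest in OM. The part of leukocyte transcripts in the receptor results was not tested. EPCAM and CDH5 were at background on all 3 arrays, while KRT14 was 213, 381 and 134 a.u., VWF 185, 399 and 109, and PECAM1 above background on MB alone, at 89.7. Of 9 melanocyte and melanoma markers, SOX10, S100B, VIM, MITF, PMEL and DCT were well above background on all arrays and MLANA on OM and MB, while the pigment enzymes TYR and TYRP1 were at background. The low signals of VWF, PECAM1 and KRT14 were highest in MB, as were the signals of TNFRSF21 and TNFRSF19. Of the melanocyte and melanoma markers, SOX10 (6254, 9598 and 5571 a.u.), S100B (25155, 44767 and 15170), MITF and MLANA were also highest in MB. PMEL (286, 214 and 309 a.u.), DCT (66.7, 64.3 and 73.0) and VIM (454704, 442095 and 523504) were instead lowest in MB and highest in NM. The part of any of these in the receptor results was not tested.

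All 28 member ratios past 2-fold kept their direction under each of 10 other settings for scaling, background, outlier spots, probe choice and source of values. Of these, 14 stayed at 2-fold or more in every one: TNFRSF9 in all 3 comparisons, TNFRSF21, TNFRSF19 and TNFRSF6B in MB against OM and NM against MB, FAS in NM against MB and against OM, LTB in MB against OM, TNFRSF10C in NM against MB, and TNFSF4 in NM against OM. The 10 do not include the rule that both arrays be well above background, which leaves the bounds of TNFRSF9 and CD40 without a ratio. The deposited values equal the scanner values, so that setting could not change a ratio. A change of scaling, quantile apart, moves all ratios of a comparison alike, and the background settings mainly made dim ratios smaller. The kept direction of ratios past 2-fold therefore says little.

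**Figure D4:**
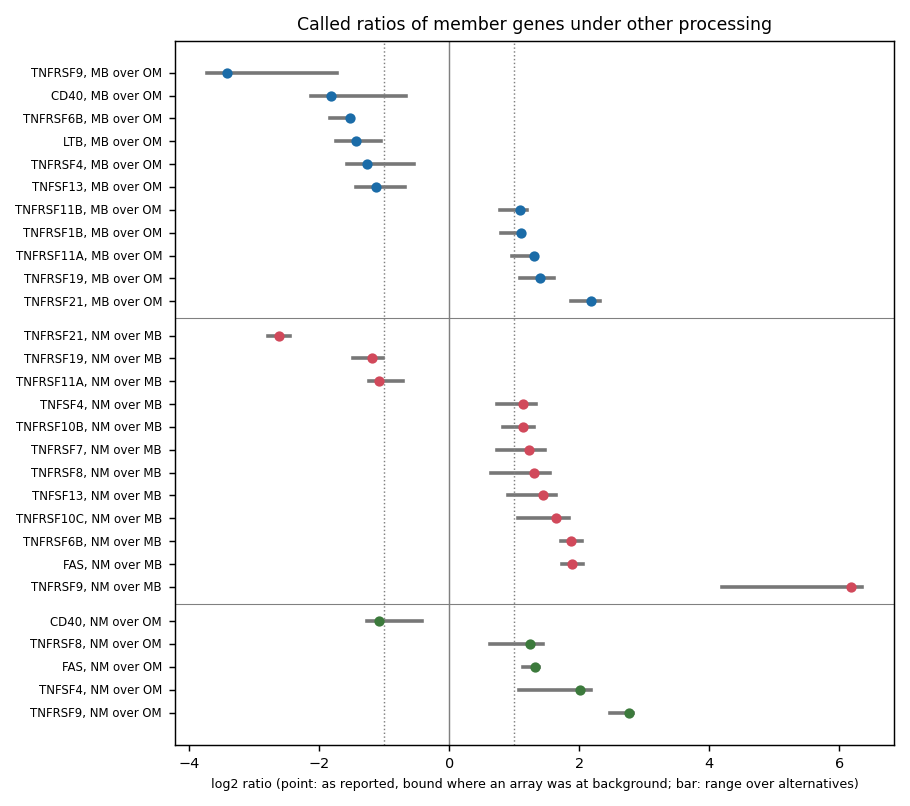
Log2 ratio (x axis) of the 28 member ratios past 2-fold, grouped by comparison, with the reported value (or bound) as a point and the range over the 10 other settings and the reported one as a bar. Dotted lines mark 2-fold, and bars that cross them belong to ratios that drop under 2-fold in some setting. The bars of TNFRSF9 run from -3.72 to -1.73 (MB over OM) and from 4.19 to 6.34 (NM over MB) and never cross 0.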

How the data were processed

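Total RNA from OM, MB and NM of 1205Lu was hybridised to 1 Agilent array each (1-colour, Cy3). The authors deposited spot intensity values from Feature Extraction (9.5.3.1 in the file headers), in which a fitted background surface had been subtracted and a spatial trend divided out (checked: within 1% in 100% of spots that kept their own value), while 16.1% to 21.9% of spots hold a surrogate for low signal. No scaling between arrays had been applied. Control spots and outlier spots (77, 79 and 81) were left out, spots of a probe averaged, and arrays scaled to the average of GAPDH, ACTB and HSP90AA1, with factors relative to OM of 1, 0.978 and 0.877. Of 41000 probes, 28746, 29126 and 26516 were well above background on OM, MB and NM, where a probe with several spots needed at least 0.5 of them above it.

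Members with a ratio or bound of 2-fold or more, the 5 with the highest mean signal and TNF are named with all signals. Members and gene lists were chosen with earlier results of these data known. Some genes of the lists are not reported here and were left out of their counts and sums. Of the 53 member probes, 52 were matched to current symbols by accession. Alternatives were other scalings (75th percentile, quantile, none, geometric mean, spike-ins), normexp or no background subtraction, other rules for dim signals, outlier spots and several probes, the deposited value table, and the 5-fold criterion. Python 3.11.15 (numpy 2.4.6, pandas 2.3.3, matplotlib 3.10.9) and R 4.3.3 with limma 3.58.1 (normexp, offset 50) were used. With 3 arrays and no replicate cultures, the number of arrays limits precision, and SDs over spots are technical.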

Additional observations from a re-analysis of the deposited data

How the results depend on the processing

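No paired analysis was possible because each population had 1 array, and the slide could not be a block since all 3 arrays share it. Every member ratio or bound past 2-fold kept its sign in the 10 other settings described above, which says little for the reason given there. Of the 28, 14 fell under 2-fold in at least 1 setting. The deposited value table equals the scanner values (130128 of 130128 within 0.1%), and neither it nor keeping outlier spots changed a count of members. The cause of the shifts below was not tested.

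In MB against OM, the count of higher members (5) became 3 with 75th percentile, quantile or spike-in scaling (7 probes) or normexp, and 0 at the 5-fold criterion. The count of lower members (6) became 10 with spike-in scaling, 3 with normexp or without background subtraction, and 1 at 5-fold. The median log2 ratio (0.02) was -0.17 with the 75th percentile, -0.094 with quantile, -0.013 without scaling, -0.0060 with the geometric mean, -0.29 with spike-ins and -0.012 over all probes of a gene.

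In NM against MB, the higher members (9) became 5 with normexp or without background subtraction and 1 at 5-fold, and the lower ones (3) became 1 at 5-fold and 2 with 75th percentile, quantile, geometric mean or spike-in scaling, normexp or no background subtraction. The median (0.50) was 0.61 with the 75th percentile, 0.60 with quantile, 0.34 without scaling, 0.59 with the geometric mean, 0.67 with spike-ins, 0.35 with normexp and 0.40 without background subtraction.

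In NM against OM, the higher members (4) became 1 at 5-fold. The lower member (1, CD40) became 0 with quantile, normexp, no background subtraction, both arrays above background or 5-fold, and 2 without scaling or with dim signals taken as they stand. The median (0.33) was 0.14 without scaling and 0.19 with spike-ins.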
